A study of Homo sapiens with 6 samples.

Results

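Chromatin accessibility was examined at 9 genes of the forkhead (FOX) family, namely FOXA1, FOXA3, FOXO1, FOXO3, FOXP1, FOXP2, FOXP4, FOXJ3 and FOXK1. The genes were picked because sites with FOX motifs are frequent among the peaks that gained accessibility in this same experiment, and every peak of the deposited table inside or within 50 kb of one of them (GENCODE 44, hg38) was taken. This gave 256 of 171517 peaks. The measurement that led to the choice is the share of peaks holding the letters TGTTTAC or TATTTAC on either strand in the 200 bp around their centre, which was 12.1% among all more accessible peaks and 4.33% among all peaks. Because genes and changes come from the same contrast, the changes below describe these peaks, and no inference about the family rests on them.

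The data are ATAC-seq libraries of H9 cells, an established human embryonic stem cell line, kept as naive ES (nES) cells in tt2iLGö medium (MEK, GSK3 and PKC inhibitors with human LIF) under hypoxia. In ATAC-seq a transposase cuts accessible DNA, so read counts at a site increase with its accessibility. The 3 dm-αKG libraries come from cells given 4 mM dimethyl-α-ketoglutarate (dm-αKG), a cell-permeable form of the TCA cycle metabolite αKG, for 24 h. The 3 control libraries come from cells that the labels mark as DMSO and the protocol as 0 mM dm-αKG. All cells had grown on irradiated mouse fibroblast feeders and were depleted of them before seeding on laminin, and all belong to 1 cell line in 1 experiment, described in the study's methods as biological replicates.

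FOX proteins bind DNA through a shared forkhead domain. FOXA proteins are pioneer factors of endoderm and its derivatives that can bind closed chromatin. FOXO proteins are held outside the nucleus by insulin and AKT signalling and act in metabolism, stress resistance and stem cell maintenance, whereas FOXP proteins act mostly as repressors in the development of brain, lung and blood.

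Of the 256 peaks, 134 lay inside the genes, 46 lay within 1 kb of a transcript start of their gene, and for 190 the nearest protein-coding transcript start belonged to it. Of these peaks, 6 passed an adjusted p below 0.01 with an absolute log2 fold change above 1 in edgeR's quasi-likelihood test over all peaks. They lay at FOXP1, FOXP4, FOXJ3 and FOXK1. The sequences of 5 of these peaks are shown because they carry the calls, together with a FOXP1 peak just under the fold threshold, which was singled out after its values were seen because it had the smallest adjusted p among peaks with FOX letters. All are given 5′ to 3′ on the plus strand of hg38, and capitals mark FOX letters (TGTTTAC or TATTTAC) and octamer-like OCT letters (ATGCAAA), in either orientation.
FOXP1, chr3:71007468-71007667: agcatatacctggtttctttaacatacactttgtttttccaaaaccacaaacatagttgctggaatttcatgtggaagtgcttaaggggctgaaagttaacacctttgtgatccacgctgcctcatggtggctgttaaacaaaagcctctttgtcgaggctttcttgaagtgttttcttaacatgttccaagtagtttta
FOXP1, chr3:71035020-71035219: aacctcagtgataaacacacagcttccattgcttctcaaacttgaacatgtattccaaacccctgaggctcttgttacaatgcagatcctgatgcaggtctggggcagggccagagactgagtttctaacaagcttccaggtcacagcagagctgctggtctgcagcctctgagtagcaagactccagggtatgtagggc
FOXP1, chr3:71066873-71067072: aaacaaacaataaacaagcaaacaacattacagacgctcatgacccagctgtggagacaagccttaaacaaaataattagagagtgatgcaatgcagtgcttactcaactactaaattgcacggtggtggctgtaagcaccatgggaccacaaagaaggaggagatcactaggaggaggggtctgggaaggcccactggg
FOXP1, chr3:71498254-71498460: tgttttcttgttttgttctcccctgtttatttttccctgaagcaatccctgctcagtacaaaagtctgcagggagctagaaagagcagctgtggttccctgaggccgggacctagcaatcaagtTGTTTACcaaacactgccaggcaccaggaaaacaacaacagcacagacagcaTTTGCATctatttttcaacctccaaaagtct
FOXP4, chr6:41562218-41562417: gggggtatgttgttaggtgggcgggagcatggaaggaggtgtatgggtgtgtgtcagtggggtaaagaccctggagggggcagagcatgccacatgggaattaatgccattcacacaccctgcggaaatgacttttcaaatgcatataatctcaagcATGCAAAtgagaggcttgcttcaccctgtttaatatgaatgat
FOXJ3, chr1:42210799-42210998: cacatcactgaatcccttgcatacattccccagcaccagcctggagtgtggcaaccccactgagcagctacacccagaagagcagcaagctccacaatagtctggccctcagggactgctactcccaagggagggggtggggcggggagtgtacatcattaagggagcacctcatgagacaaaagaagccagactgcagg

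Of the 6 called peaks, 1 held FOX letters (the FOXK1 peak, not shown), beside 4.55% of all less and 12.1% of all more accessible peaks. The FOXP4 peak held OCT letters, and the FOXP1 peak singled out held both FOX letters and, on the minus strand, OCT letters. A match of letters is a description and does not show that a factor binds there. Only TGTTTAC and TATTTAC were searched as FOX letters, so their absence does not show that a peak lacks a FOX motif.

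Taken over all 9 genes, the peaks at FOX genes moved about as peaks did elsewhere. The median log2 fold change of dm-αKG over control was 0.010 at the 256 peaks and 0.011 over all peaks. More accessible peaks numbered 2 of 256, or 0.781%, beside 0.782% of all peaks. Less accessible peaks numbered 4 of 256, or 1.56%, beside 1.96% of all peaks. Without the fold threshold, 7 peaks rose, or 2.73%, beside 3.34% of all peaks, 23 peaks fell, or 8.98%, beside 6.54% of all peaks, and 226 did not pass. The 3 dm-αKG libraries all lay above the 3 control libraries at 33 peaks, or 12.9%, beside 15.5% of all peaks, and all below at 50 peaks, or 19.5%, beside 16.9%, and 32.4% of all peaks had no overlap in either direction. By gene, edgeR peaks past the adjusted p numbered 6 of 53 at FOXP1, 4 of 40 at FOXK1 and 3 of 25 at FOXA3. They numbered 2 of 19 at FOXO1, 2 of 21 at FOXJ3 and 1 of 20 at FOXO3. FOXA1 and FOXP2 had 0 of 12 and 0 of 18, and FOXP4 had 12 of 48. The share over all peaks was 9.88%. DESeq2 called 2 of the 256 peaks, beside 1.98% of the peaks it gave an adjusted p. In a bulk measurement, a change in the number of cells with an open site and a change in openness per cell cannot be told apart. The plot of log2 fold changes by gene shows 8 medians between -0.01 and 0.13 and that of FOXP4 below them.

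**Figure D1:**
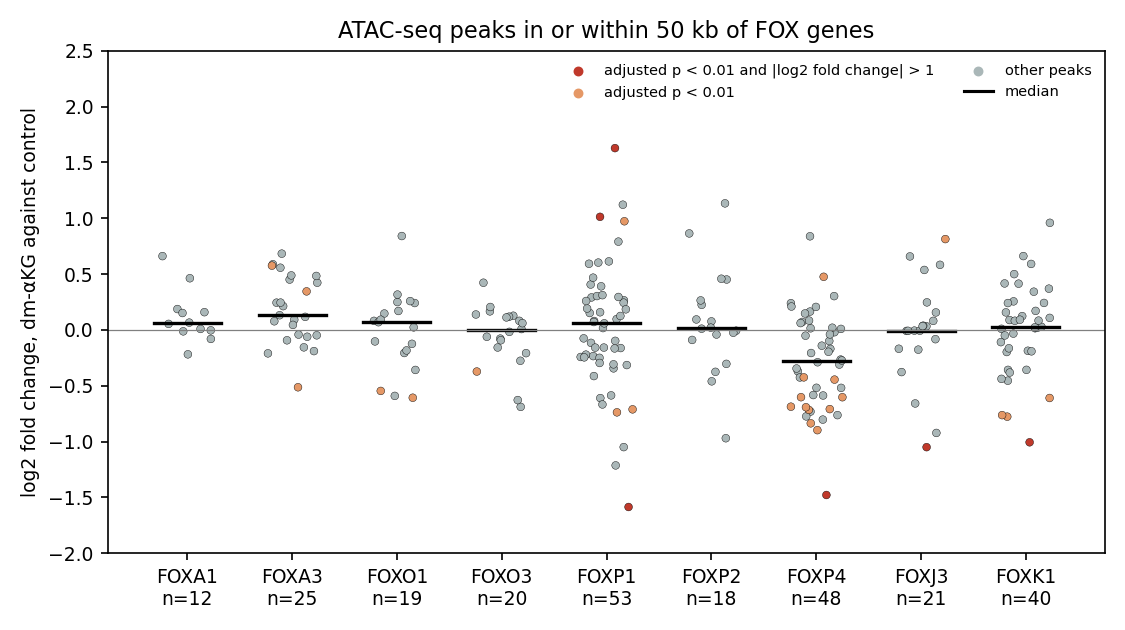
Log2 fold change (dm-αKG over control, edgeR) of each of the 256 peaks, grouped by gene, with 1 point per peak and the median as a line. The FOXP4 median lies at -0.28, and the other medians lie between -0.01 (FOXJ3) and 0.13 (FOXA3).

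The libraries held between 13025674 and 26828622 counts in peaks, and 238 of the 256 peaks had at least 10 counts in every library. Counts below are normalized, that is, divided by the effective library size and multiplied by the mean effective size. Pearson's r of log2 depth-scaled counts across peaks was between 0.942 and 0.966 within groups and between 0.911 and 0.928 between groups. Of 11 naive pluripotency genes, 10 had a promoter peak, each above the median peak. So did all 4 primed, 7 trophoblast, 5 primitive endoderm and 6 mesoderm and fibroblast genes listed. Such a count therefore cannot tell naive cells from the other types and does not check the cell label. Among these lists KLF17 fell (log2 fold change -0.39), SUSD2 rose (0.33) and DUSP6 fell (-0.30) at an adjusted p below 0.01. The summed counts of the mesoderm and fibroblast promoters lay between 937 and 989 in control and between 927 and 1043 in dm-αKG libraries, and the part of other cells in the results was not tested.

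Promoter peaks of the 9 genes were accessible in nES cells, at control levels between 76.2 and 255 per 200 bp for all but FOXA3. The promoter peak of each gene was taken as the one with the highest mean count over all 6 libraries within 1 kb of any of its transcript starts. Ranking by the control libraries alone, an alternative added after the values were seen, took the same peak for 8 genes and another for FOXP2. The FOXA3 promoter peak had the highest control level, 750 ± 21.0 normalized counts per 200 bp (SD, n = 3), but its centre lay closer to the start of the neighbouring gene SYMPK, which encodes a scaffold of RNA 3′-end processing. FOXO3 (255 ± 23.4), FOXO1 (250 ± 10.7), FOXP1 (246 ± 37.1), FOXP4 (201 ± 20.4) and FOXJ3 (186 ± 9.97) followed, and each overlapped its neighbour in this order across the 3 control libraries. FOXK1 (96.2 ± 11.9) was lower, as was FOXP2, at 115 ± 21.3 for the peak chosen over all libraries and 139 ± 22.2 for the peak chosen by control, at chr7:114085701-114085906. The first of these overlapped FOXK1, and the second lay above FOXK1 in all 3 control libraries. FOXA1, with 76.2 ± 0.833, lay below FOXK1 in all 3 control libraries. The FOXP2 peak chosen over all libraries lay at an internal transcript start within an intron of its longest form, and the FOXP1 peak likewise lay at an internal start. At FOXA3, the 2 peaks whose nearest start was its own had 96.2 and 55.8 per 200 bp in control, far below the peak nearest to SYMPK.

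None of the 9 promoter peaks passed an adjusted p below 0.01 in edgeR, and 0 passed in DESeq2, while 3 had an unadjusted p below 0.05, of which 2 were higher in dm-αKG. With FOXP2 represented by its control-chosen peak these numbers were 2 and 1, and again 0 passed with either tool. For reference, 4.47% of all peaks within 1 kb of a protein-coding start rose and 2.08% fell at this threshold. The FOXP2 peak chosen over all libraries had normalized counts of 106, 149.6 and 117 in control and 167, 153 and 198 in dm-αKG libraries, a log2 fold change of 0.46 ± 0.14 (SE) with an adjusted p of 0.0147. It was chosen through its dm-αKG counts, so this difference is conditioned on them, and the control-chosen FOXP2 peak had 134, 169 and 126 in control and 144, 172 and 112 in dm-αKG libraries (-0.01 ± 0.14, adjusted p = 0.98). The FOXO1 promoter peak had 273, 253 and 254 in control and 306, 332 and 295 in dm-αKG libraries (log2 fold change 0.26 ± 0.10, adjusted p = 0.0568). At FOXP1 the promoter counts were 293, 256 and 216 in control and 217, 209 and 225 in dm-αKG, and these ranges overlapped (log2 fold change -0.25 ± 0.11, adjusted p = 0.112). The other 6 promoter peaks had log2 fold changes between -0.01 and 0.13.

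**Figure D2:**
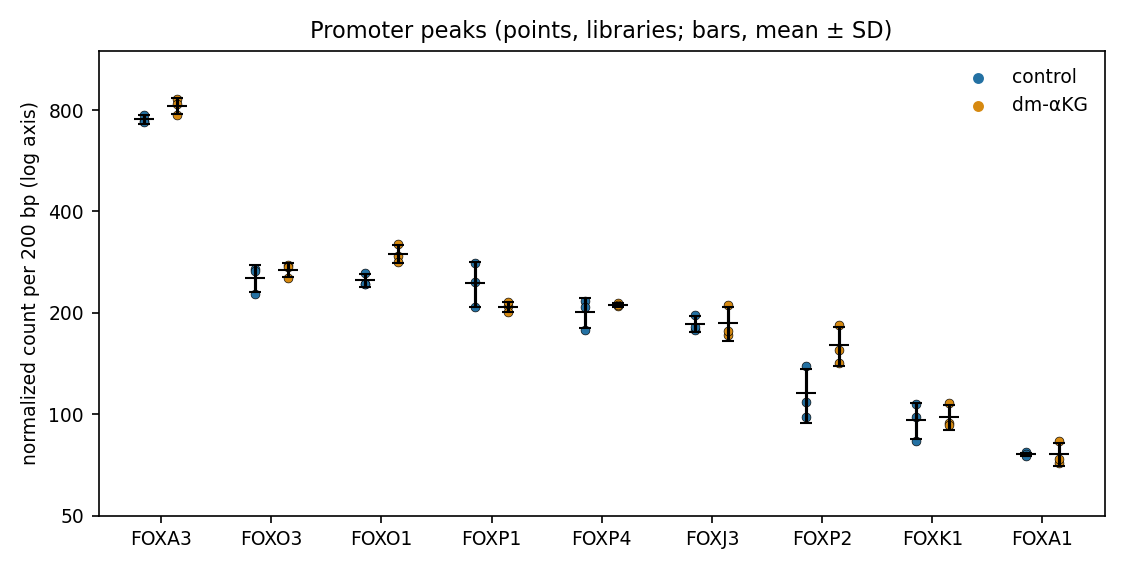
Normalized count per 200 bp of the promoter peak of each gene on a log axis, ordered by the control mean, with the peak chosen over all libraries, points for the 3 control and 3 dm-αKG libraries and bars for mean ± SD. The FOXA3 peak, whose centre lay closer to a SYMPK start, stands at 750 in control and FOXA1 at 76.2. None of the 9 differences passed an adjusted p below 0.01.

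FOXA1 (chr14:37589552-37596059, minus strand), a pioneer factor of endoderm and hormone-responsive epithelia, had 12 peaks, and 0 of them passed an adjusted p below 0.01. Its promoter peak had 83.2, 82.2 and 81.4 counts in control and 77.4, 79.5 and 89.8 in dm-αKG libraries, with a log2 fold change of -0.01 ± 0.18. The most accessible FOXA1 peak in control, 10.2 kb downstream of the start at chr14:37583934-37584139, had 139, 169 and 183 in control and 139.8, 124 and 157 in dm-αKG libraries (log2 fold change -0.22 ± 0.14, adjusted p = 0.282). The peak with the smallest adjusted p, 0.159, lay in an intron of the neighbouring gene TTC6 and had 11.6, 18.9 and 31.6 counts in control and 31.6, 29.5 and 34.4 in dm-αKG libraries. Summed over the 12 peaks, the counts were 734 ± 11.6 in control and 755 ± 21.1 in dm-αKG (SD, n = 3).

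FOXA3 (chr19:45863989-45873797, plus strand), which acts in liver and gut, is a short gene in a gene-dense region, and only 2 of its 25 peaks had a FOXA3 start as the nearest one. In this window 2 peaks rose and 1 fell. The peak at chr19:45902874-45903229, nearest to MYPOP, had 465, 467 and 486 counts in control and 617, 618 and 557 in dm-αKG libraries (log2 fold change 0.34 ± 0.08, adjusted p = 0.00048). The peak at chr19:45887072-45887280, nearest to IRF2BP1, had 131, 152 and 102 counts in control and 188, 210.4 and 186 in dm-αKG libraries (0.58 ± 0.13, adjusted p = 0.000938). In contrast, the peak in the untranslated region of NANOS2, a germ cell RNA-binding factor, at chr19:45913984-45914188, had 278, 232 and 231 counts in control and 195, 149 and 168 in dm-αKG libraries (-0.51 ± 0.12, adjusted p = 0.000747). The groups did not overlap at any of these 3 peaks, which lay between 13275 and 40187 bp from FOXA3 itself. The summed counts of the FOXA3 window were 3617 ± 23.8 in control and 3925 ± 173 in dm-αKG, with each dm-αKG library above each control library.

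FOXO1 (chr13:40555667-40666641, minus strand), a target of insulin signalling, had 19 peaks, of which 2 fell and 0 rose. They lay 14.7 and 15.3 kb upstream of the start. The peak at chr13:40681248-40681459 had 185, 176 and 183 counts in control and 113, 136 and 127 in dm-αKG libraries (log2 fold change -0.55 ± 0.14, adjusted p = 0.00187), and the adjusted p exceeded 0.01 when control replicate 1 (0.0165) or the first dm-αKG library (0.0411) was dropped. The adjacent peak at chr13:40681843-40682042 had 137, 122 and 115 in control and 90.4, 66.7 and 86.8 in dm-αKG libraries (-0.61 ± 0.16, adjusted p = 0.00477). This second peak was in the control peak list only, so its difference is conditioned on that list. The groups did not overlap at either peak. Beside them, the most accessible FOXO1 peak, at chr13:40680812-40681017, had 555, 613 and 596 in control and 481, 569.6 and 584 in dm-αKG libraries (-0.12 ± 0.08, adjusted p = 0.274), with overlapping groups.

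FOXO3 (chr6:108559835-108684774, plus strand), which sustains quiescent stem cells, had 20 peaks, of which 1 fell and 0 rose. This was its most accessible peak, 47535 bp beyond the 3′ end of the gene at chr6:108732309-108732716, with 638, 622 and 655 counts in control and 495, 472 and 510.4 in dm-αKG libraries (log2 fold change -0.37 ± 0.08, adjusted p = 0.00011). All 3 dm-αKG libraries were below all 3 controls there. The promoter peak had 413, 489.9 and 483 in control and 502, 496 and 461 in dm-αKG libraries, a log2 fold change of 0.08 ± 0.08 with an adjusted p of 0.534.

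Genes around the FOXO factors were examined at their promoters. Of 12 regulators of FOXO (among them the insulin receptor INSR and the AKT kinases) and 12 textbook targets (among them CDKN1B, BCL2L11 and TXNIP), all 24 had a promoter peak and 0 passed an adjusted p below 0.01 in edgeR or in DESeq2. Among all peaks within 1 kb of a start 4.47% rose and 2.08% fell, so that a count of 0 among 24 is near that share. An unadjusted p below 0.05 was seen at 4 of the 24, with 2 higher and 2 lower in dm-αKG. Log2 fold changes lay between -0.23 and 0.25 with a median of 0.015. INSR, which carries the insulin signal towards AKT, was the highest of them, with 263, 262 and 244 counts in control and 304, 304 and 313 in dm-αKG libraries (adjusted p = 0.0617).

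FOXP1 (chr3:70954693-71583978, minus strand), a repressor of which a splice form is linked to pluripotency, had the most peaks of the 9 genes, 53, of which 52 lay inside the gene. The median log2 fold change was 0.06. Changes went in both directions, with 3 peaks that rose and 3 that fell, beside 3.34% and 6.54% of all peaks. All 6 lay in introns that an overlapping gene model shares. The strongest decrease, at chr3:71007468-71007667 and 2.23 kb upstream of an internal start, had 39.4, 37.0 and 40.1 counts in control and 18.6, 14.1 and 1.497 in dm-αKG libraries (log2 fold change -1.59 ± 0.35, adjusted p = 0.000456). The groups were well apart, and the dm-αKG value of 1.497 is 1 read. This peak was in the control peak list only, as were 15.4% of all peaks. It thus entered the table through the group where it was higher, and its difference is conditioned on that.

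At FOXP1, 2 peaks were called more accessible. Both were in the dm-αKG peak list only, as were 13.2% of all peaks. They thus entered the table through the group where they were higher, and their differences are conditioned on that. The peak at chr3:71035020-71035219 had 9.84, 13.97 and 0 counts in control and 27.2, 32.1 and 21.0 in dm-αKG libraries (log2 fold change 1.63 ± 0.43, adjusted p = 0.00329). Its control libraries held 11, 17 and 0 reads, so that the value of control replicate 3 allows up to 3 reads, and the call was lost when that library was dropped (adjusted p = 0.0431). Dropping control replicate 1 (0.0113) or replicate 1 (0.0199) or 2 (0.0226) of dm-αKG also lost it, as did DESeq2 (adjusted p = 0.28). The peak at chr3:71066873-71067072, which holds the NRF2-like letters TGACNNNGC, had 20.6, 35.3 and 48.6 counts in control and 78.2, 56.4 and 68.9 in dm-αKG libraries (1.01 ± 0.24, adjusted p = 0.0011). Its groups did not overlap, but its adjusted p was 0.0419 when control replicate 1 was dropped, 0.0323 when replicate 1 of dm-αKG was, and 0.0144 in DESeq2.

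The FOXP1 peak with TGTTTAC, at chr3:71498254-71498460 and 4.79 kb upstream of a transcript start, had 70.7, 101 and 96.0 counts in control and 200.1, 176 and 139 in dm-αKG libraries. Every dm-αKG library lay above every control library. The log2 fold change was 0.97 ± 0.15 with an adjusted p of 6.26e-07, and the peak was present in both peak lists. It kept an adjusted p below 0.01 under every alternative tried, with log2 fold changes between 0.83 and 1.09 when 1 library was left out. The other 2 peaks that passed at FOXP1 fell, by 0.74 at chr3:71432444-71432647 (237, 199.7 and 225 in control against 120, 128 and 154, adjusted p = 7.4e-06) and by 0.71 at chr3:71247705-71247904 (180, 173 and 200.4 against 113, 121 and 100.3, adjusted p = 6.1e-05). The plot of FOXP1 peaks by position shows rises and falls spread over the gene. Summed counts were 4086 ± 138 in control and 4046 ± 25.7 in dm-αKG, with overlapping libraries.

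**Figure D3:**
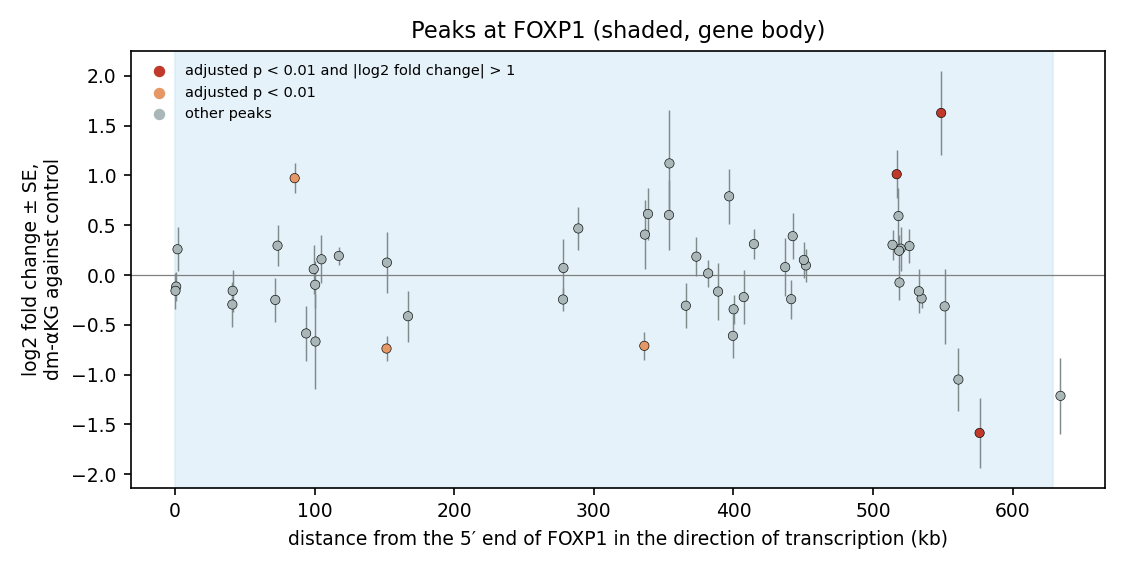
Log2 fold change ± SE of the 53 FOXP1 peaks against the distance in kb of the peak centre from the 5′ end of the gene (shaded), counted in the direction of transcription. Called peaks (red) lie on both sides of 0, from -1.59 to 1.63.

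FOXP2 (chr7:114086327-114693772, plus strand), known from speech and language development, had 18 peaks, and 0 passed an adjusted p below 0.01. Its levels were low, with a median control count of 33.1 per peak beside 65.3 over all peaks. The most accessible peak, in an intron at chr7:114589449-114589734, had 197, 204 and 213 counts in control and 170.0, 195 and 242 in dm-αKG libraries (-0.04 ± 0.12).

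FOXP4 (chr6:41546381-41602384, plus strand), which acts with the other FOXP proteins in lung and gut epithelium, was the gene with the clearest shift. Of its 48 peaks, 12 passed an adjusted p below 0.01, of which 11 fell and 1 rose, and the median log2 fold change was -0.28, against 0.04 over the 208 peaks of the other 8 genes. That share, 25%, stands beside 9.88% of all peaks past the adjusted p in either direction. It was chosen for description after its values were seen. Log2 fold changes were below 0 at 34 of the 48 peaks, beside 48.8% of all peaks. At 19 of the 48, all dm-αKG libraries lay below all controls, beside 16.9% of all peaks. The summed counts were 5095, 5287 and 5249 in control and 4340, 4422 and 4323 in dm-αKG libraries, a log2 ratio of -0.26 with no overlap. The count of 12 went to 6 when replicate 1 or 2 of the control or replicate 1 of dm-αKG was dropped, to 7 when replicate 2 of dm-αKG was, and to 6 in DESeq2, whereas the median stayed between -0.32 and -0.20 with any library left out.

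The decreases at FOXP4 lay inside the gene and beyond its end, and 0 of 4 peaks at its start passed. The 4 peaks around the start site had log2 fold changes between -0.43 and 0.30. The promoter peak had 187, 228 and 219 counts in control and 219, 224 and 222 in dm-αKG libraries (0.07 ± 0.11, adjusted p = 0.717). In the intron, a stretch bounded after its values were seen (chr6:41560946-41563101) held 5 peaks. They had log2 fold changes between -1.48 and -0.52, and 2 of the 5 passed an adjusted p below 0.01. All 5 had dm-αKG libraries below the controls, beside 16.9% of all peaks. The strongest of them, chr6:41562218-41562417, whose sequence with OCT letters is shown above, had 42.0, 30.4 and 30.4 counts in control and 9.32, 10.3 and 19.5 in dm-αKG libraries (-1.48 ± 0.36, adjusted p = 0.00139). Dropping control replicate 1 (adjusted p = 0.0273) or replicate 1 (0.0331) or 2 (0.0103) of dm-αKG lost this call, as did DESeq2 (0.0112). Its neighbour at chr6:41562576-41562775 fell as well, with 64.4, 57.5 and 66.8 in control against 45.2, 24.4 and 25.4 in dm-αKG libraries (-0.90 ± 0.24, adjusted p = 0.00442).

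Downstream of FOXP4, 8 consecutive peaks over 17.0 kb (chr6:41608726-41625702) all had log2 fold changes below 0, from -0.76 to -0.43, and 6 of them passed. The ends of this run were set after the values were seen, so the shared sign is only a description. For 6 of the 8 the nearest protein-coding start was that of MDFI, an inhibitor of MyoD family factors, so their link to FOXP4 rests on distance alone. The peak at chr6:41615274-41615473 had 367, 371 and 387 counts in control and 206, 263 and 238 in dm-αKG libraries (-0.69 ± 0.10, adjusted p = 6.67e-08). At chr6:41609176-41609379 the counts were 299, 297 and 294 in control and 176, 187 and 232 in dm-αKG libraries (-0.60 ± 0.11, adjusted p = 1.51e-05). The most accessible peak of the window, chr6:41622254-41622465, had 494, 494 and 417 in control and 323, 341 and 398 in dm-αKG libraries (-0.43 ± 0.09, adjusted p = 0.000155). None of the dm-αKG libraries reached the lowest control at these 3 peaks.

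The FOXP4 peak that rose, chr6:41584826-41585026 in an intron, is 1 of 2 FOXP4 peaks with FOX letters. It had 118, 122 and 129 counts in control and 183, 174 and 148 in dm-αKG libraries (log2 fold change 0.48 ± 0.14, adjusted p = 0.00908). Of the 11 peaks that fell, 0 held FOX letters. OCT letters were in 3 (27.3%), KLF-like letters (GGGNGTG) in 4 (36.4%) and NRF2-like letters in 2 (18.2%). Over all peaks these shares were 4.96%, 24.4% and 9.57%. AP-1-like (TGANTCA), SOX-like (CATTGTT) and TEAD-like (ACATTCC) letters were in 0. Among all peaks called less accessible, 11.6% held OCT letters, but those also passed the fold threshold, as did only 1 of the 11. Counted inside the gene only, 21 peaks had summed counts of 1919 ± 30.7 in control and 1771 ± 59.1 in dm-αKG (log2 ratio -0.12), and the 27 peaks in the flanks had 3292 ± 107 and 2591 ± 69.7 (-0.35). The plot of FOXP4 peaks by position shows the 2 stretches of lower peaks and the start site between -0.43 and 0.30.

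**Figure D4:**
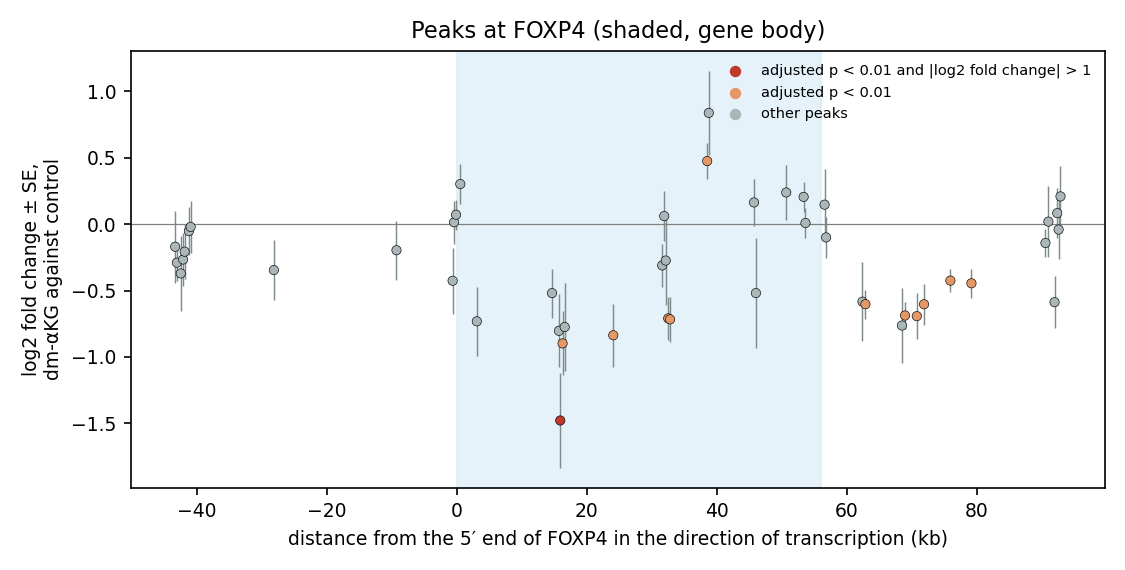
Log2 fold change ± SE of the 48 FOXP4 peaks against the distance in kb of the peak centre from the 5′ end of the gene (shaded). The run downstream of the gene, bounded after its values were seen, lies between -0.76 and -0.43, and the called intronic peak lies at -1.48.

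FOXJ3 (chr1:42176539-42335877, minus strand), a regulator in muscle and germ cells, had 21 peaks, of which 1 rose and 1 fell. The intronic peak at chr1:42210799-42210998, which holds TEAD-like ACATTCC and KLF-like GGGNGTG letters, had 51.9, 42.7 and 30.4 counts in control and 28.0, 15.4 and 13.5 in dm-αKG libraries (log2 fold change -1.05 ± 0.30, adjusted p = 0.00837). The groups did not overlap, but the lowest control was close to the highest dm-αKG library, and the adjusted p was 0.0952 and 0.0337 when replicates 1 and 2 of the control were dropped in turn, 0.0508 and 0.0353 for replicates 2 and 3 of dm-αKG, and 0.0473 in DESeq2. The intronic peak was in the control peak list only, so its difference is conditioned on that list. The peak that rose, chr1:42369551-42369768, lay upstream of FOXJ3 and nearest to RIMKLA, with 72.4, 69.0 and 43.7 in control and 113, 123 and 94.3 in dm-αKG libraries (0.81 ± 0.18, adjusted p = 0.000547).

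FOXK1 (chr7:4682295-4771442, plus strand), a repressor of autophagy genes and regulator of glycolysis, had 40 peaks, of which 4 fell and 0 rose. Of the 4, 1 was called, and its own values are not given here. An upstream peak with FOX letters, chr7:4670719-4670941, had 110.0, 113 and 119 in control and 67.4, 74.4 and 55.4 in dm-αKG libraries (-0.78 ± 0.18, adjusted p = 0.000597). The groups were apart. The peaks at chr7:4706350-4706553 in an intron (117, 136 and 131 against 74.6, 80.8 and 70.3) and at chr7:4653469-4653675 upstream (133, 150.4 and 123 against 97.5, 73.1 and 94.3) fell by 0.76 and 0.61 on the log2 scale. The most accessible peak of all 256, intronic and with FOX letters, chr7:4745018-4745220, had 825, 835 and 896 in control and 786, 788 and 792 in dm-αKG libraries, a log2 fold change of -0.11 ± 0.07 that did not pass (adjusted p = 0.266).

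**Figure D5:**
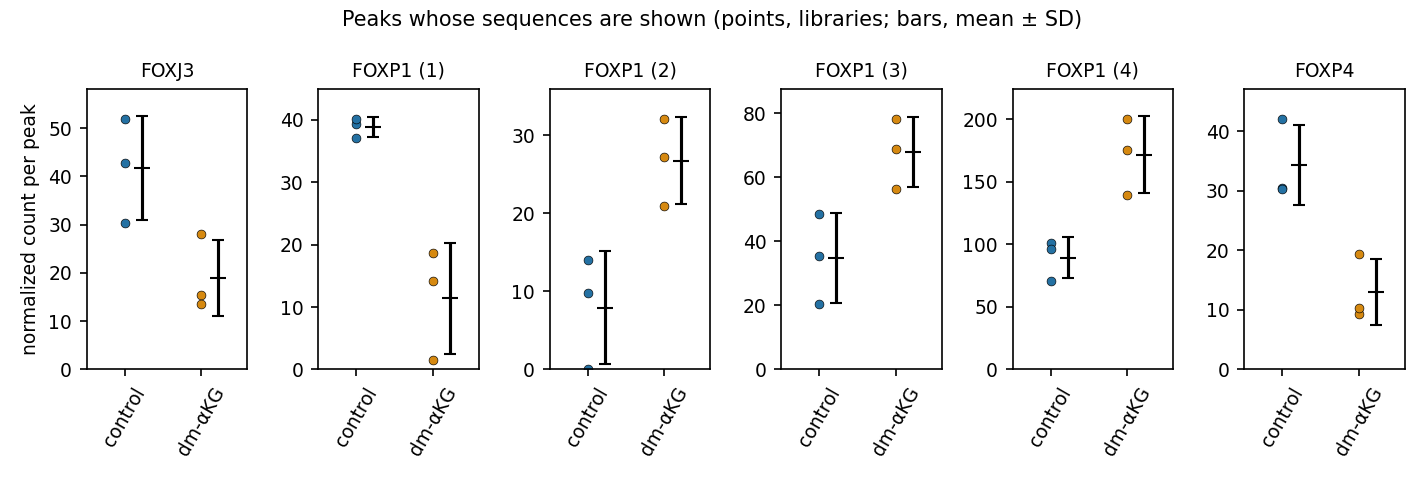
Normalized counts in each library (points) with mean ± SD (bars) for the 6 peaks whose sequences are printed, FOXP1 (1) to (4) in order of position. Control and dm-αKG libraries do not overlap in any of the 6 panels, beside 32.4% of all peaks without overlap. These 6 peaks were picked by their adjusted p, which favours such separation. The panels differ in scale.

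FOX letters themselves were found in 22 of the 256 peaks, or 8.59% (95% Wilson interval 5.74 to 12.7%, counting error only), beside 4.33% of all peaks. The interval takes peaks as independent although they cluster at 9 genes, so no enrichment is inferred from it. Away from starts, at more than 1 kb, the shares were 10.1% of 178 peaks and 5.31% of all such peaks. They were held by 7 peaks at FOXP1, 4 at FOXK1, 3 each at FOXP2 and FOXJ3, 2 each at FOXO3 and FOXP4 and 1 at FOXO1, and by 0 peaks at FOXA1 and FOXA3 and 0 of the 9 promoter peaks (1 of 9, that of FOXP2, when chosen by control counts). The change at these 22 peaks had no common direction, with 10 above 0, 12 below 0 and a median of -0.01, beside 0.01 at the 234 peaks without the letters. Of the 22, 2 rose, at FOXP1 and FOXP4, and 2 fell, both at FOXK1. Among all 7419 peaks with the letters, 389 rose and 482 fell at the same adjusted p. Among the 256, peaks with the letters had a median GC content of 47.5%, and those without, 56.5%. Over all peaks these medians were 48.5% and 56%. AP-1-like letters (TGANTCA), present in 20.2% of all more accessible peaks, were held by 16 of the 256 peaks (6.25%, beside 6.33% of all).

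At the edge of the chosen distance, the 22 peaks between 40 and 50 kb from a gene had a median log2 fold change of -0.06, with 2 past the adjusted p and 0 called. The 12 peaks between 50 and 60 kb had a median of -0.15, with 2 past the adjusted p and 1 called. Over all peaks, 9.88% passed the adjusted p, and 0.782% were called more and 1.96% less accessible. These few peaks cannot set the edge apart from those shares.

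Across the rest of the family, 36 other FOX genes had 633 peaks by the same distance, of which 3 were more and 3 less accessible (0.474% each, beside 0.782% and 1.96% of all peaks), with a median log2 fold change of 0.04. Of the less accessible peaks, 2 lay 22746 and 23127 bp from FOXD3, a repressor active in pluripotent cells. The one at chr1:63299241-63299440, with FOX letters, had 59.9, 112 and 75.3 counts in control and 41.6, 25.7 and 29.9 in dm-αKG libraries (-1.30 ± 0.23), and the one at chr1:63299622-63299821 had 68.0, 65.8 and 57.1 against 25.1, 25.7 and 26.9 (-1.31 ± 0.25). Of 30 promoter peaks of these genes only that of FOXD3 passed an adjusted p below 0.01 (log2 fold change -0.43, adjusted p = 0.00764). The other calls were a less accessible peak at FOXR2 (-1.11) and more accessible peaks at FOXN3 (1.14), FOXQ1 (1.19) and FOXS1 (1.16), the last nearest to DUSP15.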

How the data were processed

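The 6 ATAC-seq libraries of H9 nES cells, 3 control and 3 dm-αKG, were analysed, grouped by the treatment in the labels. The authors ran the ENCODE pipeline for each treatment on hg38 (the submitters' processing notes name bcl2fastq 2.20.0.422, cutadapt, Bowtie2, Picard, MACS2 and bedtools 2.28.0), cut reproducible peaks to 200 bp around the summit, merged both lists and deposited raw counts per merged peak and library, without normalization. The deposited peak lists, 1 per treatment, hold the signal ratio of each peak as a fold enrichment, used here only to tell which list held a peak. A peak held by 1 list only entered the merged table through that group, so its difference is conditioned on it.

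Counts of all 171517 peaks were tested with edgeR 4.0.16 (R 4.3.3, TMM scaling, quasi-likelihood, treatment as the only term), with Benjamini-Hochberg adjustment over all peaks. The study used DESeq2, here an alternative (1.42.0), which gave no adjusted p for 6652 peaks, 4 of them among the 256. Calls required the study's thresholds, adjusted p under 0.01 with log2 fold change beyond 1 in size. SE is the size of the change over the square root of F. With 3 against 3 libraries, an exact permutation test cannot go below 0.10. Replicate pairs differed by more than sampling noise (chi-square per degree of freedom 1.8 to 2.16), so all were kept. Intervals and the limit of 3 counts for a count of 0 cover counting error only. Letters were searched with Python 3.11.15 and pysam 0.24.0.

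The fit was tested on simulated data. The genes, gene lists and letters were chosen with earlier results of these data known. Named were promoter peaks, called peaks, the most accessible peak of each gene, the peak of smallest adjusted p where none was called, called peaks and passing promoters of other FOX genes, and passing promoters of the FOXO list. A FOXO regulator and the details of a called peak are not reported here. Other peaks past the adjusted p, and INSR, were named after their values were seen. Alternatives were RLE factors, loess offsets, at least 10 counts in every library, a replicate block, DESeq2, a fold threshold of 1.5, each library left out, the gene with 10 kb or alone, TGTTTAC alone and letters in the whole peak.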

Additional observations from a re-analysis of the deposited data

How the results depend on the processing

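RLE factors and loess offsets kept all 6 called peaks. The replicate numbers did not pair the libraries (same-numbered libraries correlated at -0.017, 0.00254 and 0.0165), and the fit with the replicate block kept 5 of the 6. More accessible peaks, 2 in all, numbered 1 with at least 10 counts in every library, 0 in DESeq2, 4 at a fold threshold of 1.5 and 0 to 3 with a library left out. Less accessible peaks, 4 in all, numbered 2, 2, 18 and 2 to 4 in the same order. DESeq2 and the fits without control replicate 1 or dm-αKG replicate 1 kept 2 of the 6 calls each. Peaks past the adjusted p, 30 in all, numbered 19 in DESeq2, 15 in genes with 10 kb, 14 in genes alone and 17 to 29 with a library left out. The lowest was without control replicate 1. The median log2 fold change of 0.010 was 0.059 with 10 kb, 0.066 in genes alone and between -0.011 and 0.040 with a library left out. Summed counts in genes alone gave log2 ratios of 0.10 for FOXA1, 0.17 for FOXO1 (against -0.06 with 50 kb), 0.013 for FOXO3 (against -0.05), 0.19 for FOXP2 and -0.12 for FOXP4. With loess offsets the FOXJ3 promoter and the FOXJ3 peak at chr1:42165880-42166097 moved from -0.0087 to 0.011 and from -0.0076 to 0.013. Choosing promoter peaks by control counts, added after seeing the data, moved the FOXP2 level from 115 to 139 per 200 bp and its log2 fold change from 0.46 to -0.0076. The FOXP2 peak chosen over all libraries passed without control replicate 2 (adjusted p = 0.0039). Leaving out a library turned the sign of some small changes that passed in no setting. Ranges were -0.071 to 0.040 (FOXA1 promoter), -0.18 to 0.097 (FOXP2 peak at chr7:114589449-114589734), -0.0073 to 0.14 (FOXP4 promoter), -0.094 to 0.060 (FOXJ3 promoter), -0.020 to 0.011 (FOXJ3 peak at chr1:42165880-42166097) and -0.062 to 0.11 (FOXK1 promoter). The adjusted p of the FOXP4 peak at chr6:41622254-41622465 was 0.0107 without dm-αKG replicate 1. With TGTTTAC alone, 6.64% of the 256 peaks held FOX letters, beside 2.85% of all peaks. The FOXP4 counts and the FOXP1 peak at chr3:71498254-71498460 were followed across alternatives that were chosen after seeing the data. Where calls changed, the cause was not tested. The called FOXP1, FOXP4 and FOXJ3 peaks had mean control counts between 7.94 and 41.7.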
